A study of Mus musculus with 6 samples.

Results

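The genes described here come from families that hold the inducible brakes of the mitogen-activated protein kinase (MAPK) pathways and the Ets transcription factors at their output. Not every phosphatase among them is such a brake. The members, matched by gene symbol, comprise the dual-specificity phosphatases (Dusp genes with a number), Spry1 to Spry4 and Spred1 to Spred3. Etv1 to Etv6, Ets1, Ets2 and the Elk genes complete them. The members and the lists below were picked with earlier results of these data known. The shares given below therefore describe these sets and test nothing. The symbols matched 47 probe sets of 42 genes, out of 19937 genes with a probe set that names no other gene. Where a gene had more than 1 probe set, the one with the highest mean over the 6 arrays stands for it. Each array holds RNA of A316 cells, a mouse line from a primary adenocarcinoma that lacks C/EBP alpha (a Cebpa knockout), in a study of lung adenocarcinoma. Of these arrays 3 are from cells given PTC-209, labelled as a compound for Bmi inhibition, in 0.5% DMSO, and 3 are from cells given 0.5% DMSO alone, so that knockout and vehicle are shared by both groups. All arrays come from 1 line. The labels do not give the dose, the exposure time, or whether replicates are separate cultures, so the p-values reflect the scatter among these arrays alone, and that scatter may be technical.

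Receptor tyrosine kinases act through Ras on a chain of kinases that ends in ERK, and stress signals act on parallel chains that end in JNK and p38. Active ERK enters the nucleus, phosphorylates Ets factors and switches on genes, some of which encode proteins that turn the pathway down again. Many dual-specificity phosphatases remove the activating phosphates from the MAPKs, and Sprouty and Spred proteins act upstream at Ras. The transcripts of several of these brakes are commonly read as a record of recent ERK activity. In lung adenocarcinoma this pathway is frequently driven by mutant receptors or Ras.

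Of the 42 genes 11 rose, 9 fell and 22 did not pass the test with PTC-209 (limma, Benjamini-Hochberg adjusted p under 0.05 over all tested probe sets). The 20 that passed are 47.6% of the members, where 26.6% of all named genes passed in either direction. Higher calls made up 26.2% of the members against 12.9% of all genes, and lower calls 21.4% against 13.7%. Brightness bears on this share: counted over genes that reached the median brightness of 4.33 (log2) in at least 1 group, 20 of 33 members passed, or 60.6%, against 45.4% of all such genes. The largest rise was of Dusp4 and the largest fall of Dusp22. Sprouty, PEA3, ternary complex factor, the other Etv genes and the atypical phosphatases each held at least 1 rise and 1 fall. Other groups had calls in 1 direction only. Ets1 and Ets2 rose, as did 2 of 3 cytoplasmic ERK phosphatases, and 2 of 3 Spred genes fell. The median log2 difference of the members was 0.067 (0.0233 without PTC-209 replicate 1), beside 0.026 for all named genes, and the median size of the difference, without its sign, was 0.26 against 0.17. The groups did not overlap for 24 of 42 members, or 57.1%, against 40.5% of all genes. All 20 called members are among them. The test used these same arrays, so the lack of overlap of a called member is no further support. Values below are log2 expression, group values are mean ± SD of 3 arrays, and array values are given in the order of replicates 1, 2 and 3. A level of 1 gene cannot be set against that of another on these arrays.

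**Figure D1:**
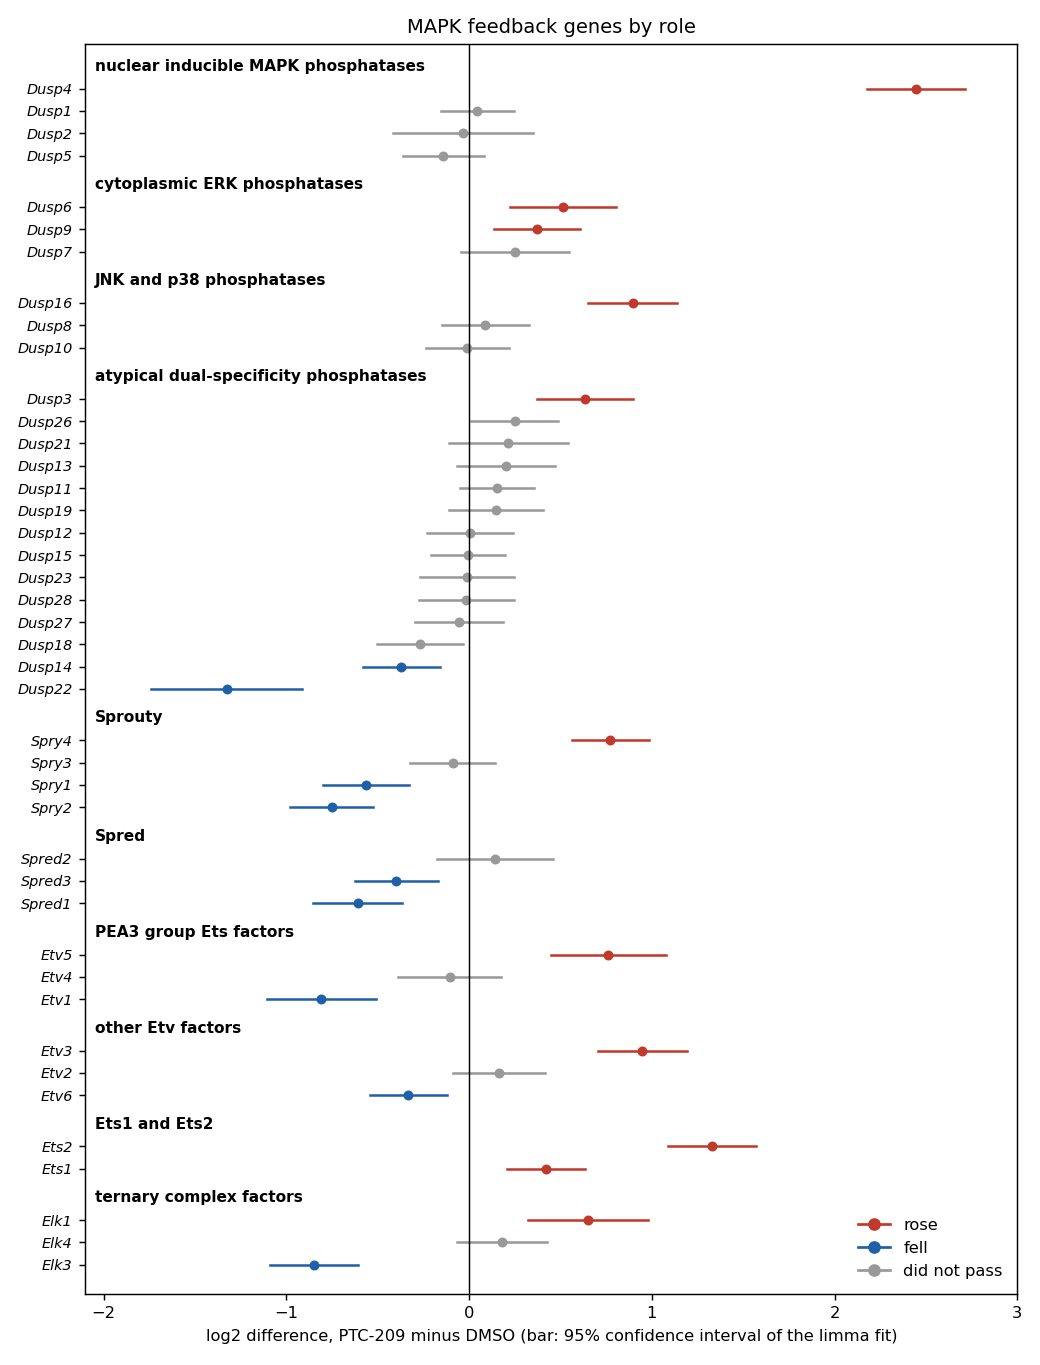
Log2 difference, PTC-209 minus DMSO, of the 42 members by role, with the 95% confidence interval of the limma fit as a bar (3 arrays a group). Dusp4 lies farthest to the right at 2.45 and Dusp22 farthest to the left at -1.33, and the Sprouty, PEA3, other Etv and ternary complex groups each have called members on both sides of 0.

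Among the nuclear phosphatases that growth factors and stress induce, Dusp4 alone passed the test. Dusp4, also called MKP-2, dephosphorylates ERK, JNK and p38 in the nucleus. Its values were 6.87, 6.56 and 6.47 on the DMSO arrays and 9.06, 9.12 and 9.05 on the PTC-209 arrays. Every treated array thus lay far above every control array, and the treated arrays lay close together. The level was 5.45-fold higher (adjusted p = 9.36e-07), with a 95% confidence interval of 4.52 to 6.55 and a log2 difference of 2.45 (SE 0.119), the rank 116 by size among the 19937 genes. Dusp1, or MKP-1, the classical immediate early phosphatase, was bright and level at 8.73 ± 0.05 in DMSO and 8.78 ± 0.02 with PTC-209. Its log2 difference of 0.046 had an interval from -0.15 to 0.24, which does not reach a change of 1.2-fold. Dusp5, a nuclear phosphatase specific for ERK, was at 6.36 ± 0.03 and 6.22 ± 0.12 (log2 difference -0.14, interval -0.36 to 0.080). Dusp2, best known from activated leukocytes, was dim in both groups, at 3.85 ± 0.38 and 3.81 ± 0.08.

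Promoter letters were read for members listed in RefSeq's table, as the 250 bases before the start of the gene in GRCm38.p6. The search, on both strands, took 5 motifs: the Ets motif CCGGAAG, the AP-1 motif TGANTCA, the cyclic AMP element TGACGTC, the E-box CACGTG and the CArG box of serum response factor. The promoters of Dusp1 and Dusp5 are shown because they hold the most matches of this group while neither transcript passed the test, with all matches in capitals.
Dusp1, chr17:26508473-26508722, minus strand: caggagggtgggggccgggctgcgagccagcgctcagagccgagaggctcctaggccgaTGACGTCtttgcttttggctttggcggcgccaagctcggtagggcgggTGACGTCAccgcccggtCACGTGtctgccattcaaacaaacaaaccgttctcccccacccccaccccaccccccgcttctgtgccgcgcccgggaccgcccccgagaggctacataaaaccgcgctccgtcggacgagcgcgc
Dusp5, chr19:53528895-53529144, plus strand: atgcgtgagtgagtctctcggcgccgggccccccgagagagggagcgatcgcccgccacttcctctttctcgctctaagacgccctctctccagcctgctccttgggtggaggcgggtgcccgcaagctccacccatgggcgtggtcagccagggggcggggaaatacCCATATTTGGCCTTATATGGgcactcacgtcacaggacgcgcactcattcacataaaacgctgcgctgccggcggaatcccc
Dusp1 holds the cyclic AMP element at 191 and 143 bases before the start, where the second match is read on both strands 1 base apart, and an E-box at 126 bases. Dusp5 holds a pair of CArG boxes that adjoin each other at 82 and 72 bases before the start. The cyclic AMP element stands in 2.78% and the CArG box in 1.47% of all 32851 promoters of this length. A match describes letters and not binding. Dusp4 has no entry in the promoter table.

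The cytoplasmic phosphatases that act mainly on ERK were called higher in 2 of 3 cases, where 12.9% of all genes were called higher. Dusp6, or MKP-3, the feedback phosphatase whose transcript follows ERK activity closely, was at 7.47, 7.07 and 7.03 in DMSO and at 7.77, 7.69 and 7.65 with PTC-209. The groups did not overlap, although DMSO replicate 1 lay well above the other controls and near the treated arrays. The level was 1.43-fold higher (interval 1.17 to 1.74, adjusted p = 0.016). Dusp9, or MKP-4, was at 6.66, 6.51 and 6.71 in DMSO and at 7.11, 7.02 and 6.87 with PTC-209, a 1.29-fold higher level (interval 1.10 to 1.52, adjusted p = 0.0288). Both differences kept their direction when any 1 array was left out, with log2 differences of 0.44 to 0.65 for Dusp6 and 0.31 to 0.44 for Dusp9, while the call was lost in some cases. Dusp6 failed without DMSO replicate 2 (adjusted p = 0.0625), DMSO replicate 3 (0.0633) or PTC-209 replicate 1 (0.0571), and against a fold change of 1.2 (0.24), with a range of 0.00162 to 0.24 over its alternatives. Dusp9 failed without DMSO replicate 2 (0.106), PTC-209 replicate 1 (0.1) or PTC-209 replicate 2 (0.0885), and against a fold change of 1.2 (0.715), with a range of 0.01 to 0.715. Dusp7, or MKP-X, was at 6.39 ± 0.26 and 6.64 ± 0.02, and its log2 difference of 0.25 did not pass (interval -0.042 to 0.55), although its groups did not overlap.

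Of the phosphatases that prefer JNK and p38, Dusp16 rose. Dusp16, or MKP-7, which acts on JNK and p38 in the cytoplasm, was at 5.85, 5.82 and 5.65 in DMSO and at 6.82, 6.64 and 6.55 with PTC-209. All treated arrays lay above all controls, with a 1.86-fold higher level (interval 1.57 to 2.20, adjusted p = 0.000233), a log2 difference of 0.90 (SE 0.108). Dusp10, or MKP-5, was level at 7.78 ± 0.10 and 7.78 ± 0.10, with an interval of the log2 difference from -0.24 to 0.22. Dusp8 was at 4.75 ± 0.10 and 4.84 ± 0.12 and did not pass, nor did its other probe set, at 3.80 ± 0.08 and 3.95 ± 0.14.

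The atypical phosphatases, which lack the MAPK-docking domain, held 14 of the members, of which 1 rose, 2 fell and 11 did not pass. Among all genes 26.6% passed, and among bright genes 45.4%. Dusp22, a phosphatase described as an activator of JNK signalling, was at 6.17, 6.10 and 6.23 in DMSO and at 4.74, 4.47 and 5.30 with PTC-209. The controls were tight and the treated arrays spread widely, with replicate 3 the least reduced, but all of them lay below every control. The level was 2.51-fold lower (interval 1.88 to 3.34, adjusted p = 0.000553), a log2 difference of -1.33 (SE 0.184). Dusp3, or VHR, which dephosphorylates ERK and JNK, was at 6.06, 5.74 and 5.72 in DMSO and at 6.38, 6.51 and 6.53 with PTC-209, a 1.55-fold higher level (interval 1.29 to 1.86, adjusted p = 0.00314). Dusp14, or MKP-6, was at 6.53, 6.44 and 6.52 in DMSO and at 6.18, 6.04 and 6.16 with PTC-209. The arrays of Dusp14 did not overlap and it was 1.29-fold lower (interval 1.12 to 1.49, adjusted p = 0.0163). That fall failed without DMSO replicate 3 (0.0561) or PTC-209 replicate 2 (0.073) and against a fold change of 1.2 (0.632), within a range of 0.00718 to 0.632 over its alternatives. The promoter of Dusp22 is shown as that of the member that fell most, and it holds none of the 5 motifs.
Dusp22, chr13:30659809-30660058, plus strand: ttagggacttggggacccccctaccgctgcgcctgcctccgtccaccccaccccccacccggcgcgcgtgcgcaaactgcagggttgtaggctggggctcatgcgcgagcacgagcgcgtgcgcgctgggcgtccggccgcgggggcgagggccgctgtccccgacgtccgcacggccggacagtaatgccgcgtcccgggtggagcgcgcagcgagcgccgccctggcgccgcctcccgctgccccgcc
The groups also did not overlap for Dusp18, at 6.96 ± 0.14 and 6.69 ± 0.07, Dusp11, an RNA phosphatase, at 7.83 ± 0.07 and 7.98 ± 0.01, and Dusp26, at 3.98 ± 0.11 and 4.23 ± 0.12, none of which passed (adjusted p = 0.0999, 0.292 and 0.132). Dusp26 was below the median brightness in both groups. Dusp12 was at 6.86 ± 0.15 and 6.86 ± 0.05 by its brighter probe set and 4.12 ± 0.16 and 4.22 ± 0.07 by the other. Dusp19 (4.62 ± 0.14 and 4.76 ± 0.14) and Dusp28 (5.17 ± 0.05 and 5.15 ± 0.19) were above the median brightness and did not pass. Dusp13, Dusp15, Dusp21, Dusp23 and Dusp27 were below it in both groups, with group means between 2.19 and 4.30, and did not pass.

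The Sprouty genes, whose proteins hold receptor signals back from Ras, split by member. Spry2 was at 7.95, 7.72 and 7.98 in DMSO and at 7.13, 7.11 and 7.14 with PTC-209. The treated arrays lay within a narrow band below all controls, a 1.68-fold lower level (interval 1.44 to 1.97, adjusted p = 0.000473), a log2 difference of -0.75 (SE 0.102). Spry1 was at 6.45, 6.23 and 6.34 in DMSO and at 5.91, 5.72 and 5.70 with PTC-209, 1.48-fold lower without overlap (interval 1.25 to 1.74, adjusted p = 0.00331). The call of Spry1 ended only against a fold change of 1.2 (adjusted p = 0.0688, range 0.00153 to 0.0688 over its alternatives). Spry4 went the other way, from 5.61, 5.52 and 5.58 in DMSO to 6.43, 6.30 and 6.29 with PTC-209. Its treated arrays were all above its controls, 1.71-fold higher (interval 1.48 to 1.98, adjusted p = 0.000227), a log2 difference of 0.77 (SE 0.093). The intervals of the log2 differences of Spry4 (0.56 to 0.98) and of Spry2 (-0.98 to -0.52) lie on opposite sides of 0. Spry3 was dim at 2.69 ± 0.05 and 2.60 ± 0.14.

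The Spred proteins bind neurofibromin and bring it to the membrane, where it switches Ras off. Of the 3 genes 2 fell, where 13.7% of all genes fell, and Spred2 did not pass. Spred1 was at 8.23, 8.06 and 8.01 in DMSO and at 7.64, 7.40 and 7.42 with PTC-209. No treated array reached the controls, and the level was 1.53-fold lower (interval 1.29 to 1.81, adjusted p = 0.0025), a log2 difference of -0.61 (SE 0.108). Spred3 was at 5.72, 5.78 and 5.63 in DMSO and at 5.18, 5.34 and 5.40 with PTC-209, 1.32-fold lower without overlap (interval 1.13 to 1.54, adjusted p = 0.0169). Spred3 failed without DMSO replicate 2 (0.0646) or PTC-209 replicate 1 (0.0638) and against a fold change of 1.2 (0.504), within a range of 0.0078 to 0.504. Spred2 was at 8.48 ± 0.11 and 8.62 ± 0.27 by its brighter probe set and at 7.96 ± 0.08 and 8.09 ± 0.11 by the other, and neither passed (intervals of the brighter one from -0.17 to 0.46).

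**Figure D2:**
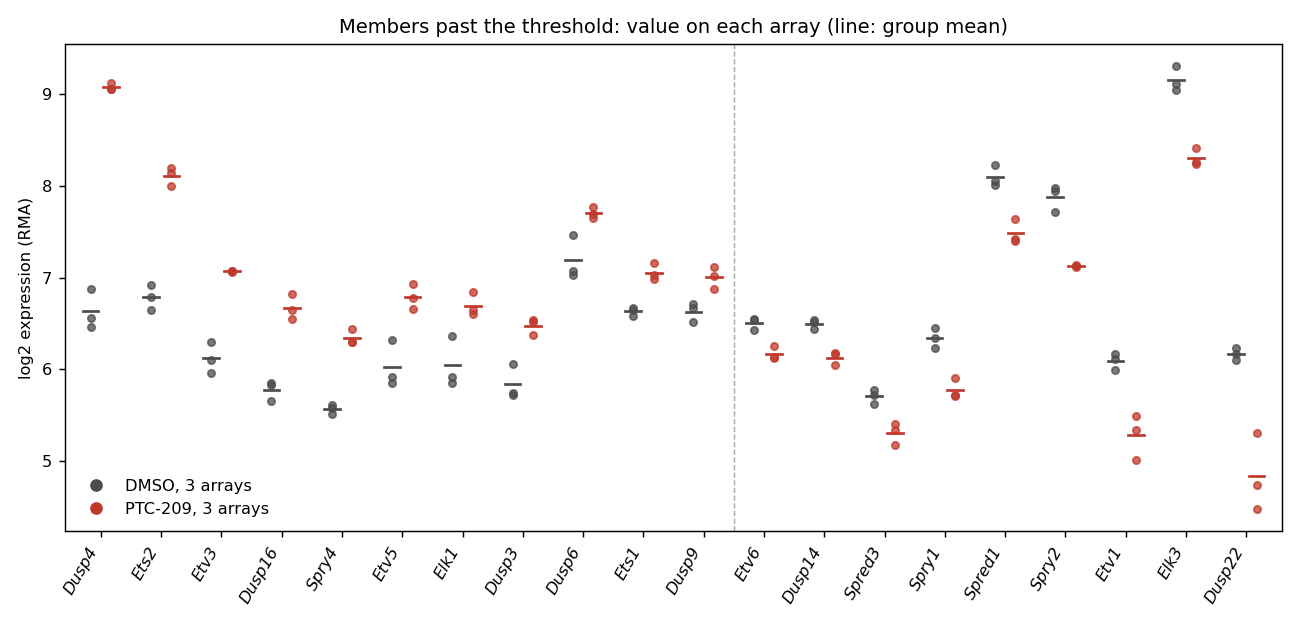
Log2 expression on each of the 3 DMSO and 3 PTC-209 arrays for the 20 members that passed, with the group mean as a line, rises to the left of the dashed line and falls to the right. In each of them the treated arrays lie wholly above or wholly below the controls, from Dusp4 at 6.63 and 9.08 on average to Dusp22 at 6.16 and 4.84. The genes were picked by a test on these same arrays, so this separation is no further support.

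The Ets factors bind DNA through a shared domain, and 5 of the 11 members rose, 3 fell and 3 did not pass. Of all genes 26.6% passed, and of bright genes 45.4%. Ets2, which ERK phosphorylates on its Pointed domain, rose the most of them, from 6.92, 6.64 and 6.79 in DMSO to 8.19, 8.15 and 8.0 with PTC-209. There was more than 1 log2 unit between the highest control and the lowest treated array. The level was 2.51-fold higher (interval 2.12 to 2.97, adjusted p = 1.94e-05), a log2 difference of 1.33 (SE 0.108). Ets1, its close relative, was at 6.67, 6.65 and 6.58 in DMSO and at 7.16, 7.03 and 6.98 with PTC-209, 1.34-fold higher (interval 1.16 to 1.55, adjusted p = 0.00911). The groups of Ets1 did not overlap, and its call ended only against a fold change of 1.2 (adjusted p = 0.338, range 0.00274 to 0.338 over its alternatives). Etv3, a repressor of the Ets family, was at 6.30, 5.96 and 6.10 in DMSO and at 7.06, 7.07 and 7.07 with PTC-209. Its treated arrays were almost equal and above all controls, 1.93-fold higher (interval 1.63 to 2.28, adjusted p = 0.000161), a log2 difference of 0.95 (SE 0.108). The promoters of Ets2 and Etv3 are shown as those of the largest rises with an entry in the table.
Ets2, chr16:95702157-95702406, plus strand: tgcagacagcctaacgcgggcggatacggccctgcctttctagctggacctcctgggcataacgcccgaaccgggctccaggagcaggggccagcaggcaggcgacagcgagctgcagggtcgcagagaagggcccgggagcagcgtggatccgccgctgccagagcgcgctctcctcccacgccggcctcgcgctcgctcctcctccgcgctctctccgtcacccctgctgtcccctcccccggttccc
Etv3, chr3:87525328-87525577, plus strand: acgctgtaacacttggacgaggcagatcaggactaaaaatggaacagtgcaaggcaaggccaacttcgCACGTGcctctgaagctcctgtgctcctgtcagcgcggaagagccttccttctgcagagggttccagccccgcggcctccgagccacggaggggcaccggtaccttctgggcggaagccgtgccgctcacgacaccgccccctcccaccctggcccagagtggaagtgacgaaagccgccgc
Ets2 holds none of the 5 motifs, and Etv3 holds an E-box 182 bases before the start, a motif found in 6.02% of all such promoters.

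The PEA3 group, Etv1, Etv4 and Etv5, whose transcripts ERK signalling is known to raise, divided in 3 ways. Etv1 was at 6.16, 6.11 and 5.99 in DMSO and at 5.34, 5.01 and 5.49 with PTC-209, 1.75-fold lower with no overlap (interval 1.43 to 2.15, adjusted p = 0.0015), a log2 difference of -0.81 (SE 0.132). Its second probe set fell too, from 5.30 ± 0.34 to 4.22 ± 0.37 (log2 difference -1.09, adjusted p = 0.00394). Etv5 was at 6.32, 5.92 and 5.85 in DMSO and at 6.66, 6.93 and 6.78 with PTC-209. No control reached a treated array, and the level was 1.70-fold higher (interval 1.36 to 2.11, adjusted p = 0.00303), a log2 difference of 0.76 (SE 0.14). A second probe set of Etv5 rose by a like amount, from 6.01 ± 0.19 to 6.70 ± 0.07 (log2 difference 0.69, adjusted p = 0.00182). Etv4 was at 5.42 ± 0.22 and 5.31 ± 0.10 and did not pass (interval -0.39 to 0.18).

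**Figure D3:**
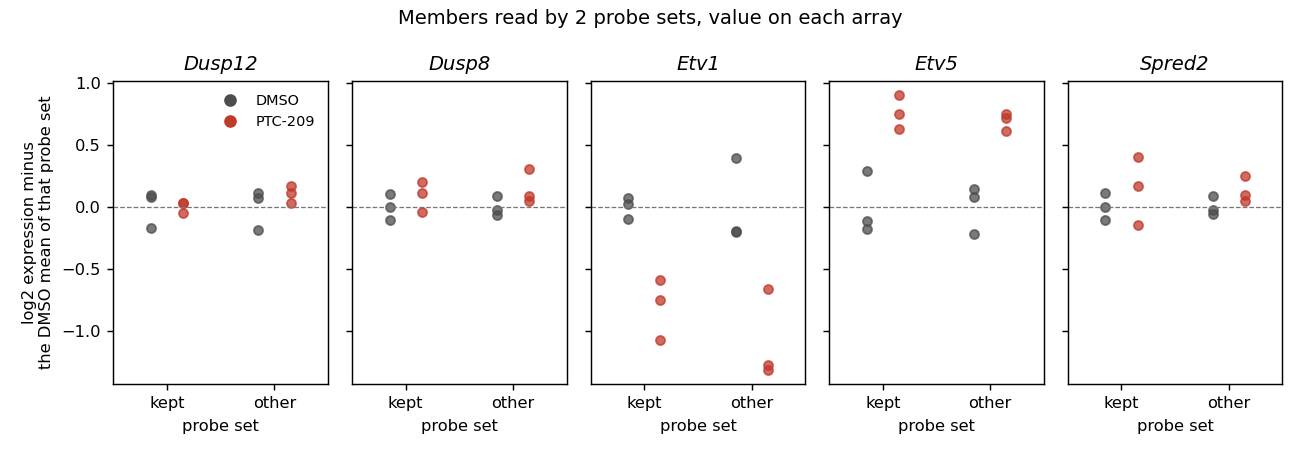
Log2 expression minus the DMSO mean of the same probe set, on each array, for the 5 members read by more than 1 probe set; kept marks the brighter one. Both probe sets of Etv1 lie below their controls and both of Etv5 above them, while those of Dusp12, Dusp8 and Spred2 stay within about 0.4 of their DMSO mean.

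Etv6, or TEL, also an Ets repressor, was at 6.53, 6.54 and 6.43 in DMSO and at 6.25, 6.13 and 6.12 with PTC-209, 1.26-fold lower without overlap (interval 1.09 to 1.46, adjusted p = 0.0279). Of the called members it lost its call under the most alternatives. It failed without DMSO replicate 1 (0.0559), DMSO replicate 2 (0.0901), PTC-209 replicate 2 (0.0963) or PTC-209 replicate 3 (0.0875) and against a fold change of 1.2 (0.938), within a range of 0.0125 to 0.938. Etv2, known from blood vessel and blood development, was dim at 3.95 ± 0.16 and 4.12 ± 0.11.

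The ternary complex factors join serum response factor on immediate early promoters after ERK phosphorylates them, and they too moved apart. Elk1 was at 6.37, 5.85 and 5.91 in DMSO and at 6.84, 6.60 and 6.64 with PTC-209. DMSO replicate 1 was high, yet below all treated arrays, and the level was 1.57-fold higher (interval 1.25 to 1.97, adjusted p = 0.00894), a log2 difference of 0.65 (SE 0.145). The call of Elk1 ended only against a fold change of 1.2 (adjusted p = 0.0904, range 0.00107 to 0.0904 over its alternatives). Elk3, or Net, which represses until it is phosphorylated, was at 9.31, 9.11 and 9.05 in DMSO and at 8.41, 8.24 and 8.26 with PTC-209. It was lower on every treated array, 1.80-fold on average (interval 1.53 to 2.13, adjusted p = 0.000295), a log2 difference of -0.85 (SE 0.106). Elk4, or SAP-1, was at 7.59 ± 0.10 and 7.76 ± 0.15 and did not pass (interval -0.069 to 0.42).

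In a list of the ERK cascade, from adaptors and Ras to the kinases, 29 of 37 genes were measured, of which 12 rose and 3 fell. The list also holds inhibitors: the Ras GTPase activators Nf1, Rasa1, Rasa2 and Rasal2, and the Raf inhibitor Pebp1. Rasa2 and Rasal2 are among the rises, so the counts do not describe the forward cascade alone. Gab2, a docking protein of receptors, was 2.30-fold higher (6.85 ± 0.18 to 8.05 ± 0.07). Lamtor3, a scaffold of MEK and ERK on late endosomes, was 1.66-fold higher, the Ras relative Mras 1.63-fold and the Ras GTPase activator Rasal2 1.60-fold. Those that fell were Rras2, a Ras relative (1.81-fold lower, 10.16 ± 0.13 to 9.30 ± 0.09), the kinase Araf (1.38-fold) and the exchange factor Sos1 (1.37-fold). The call of Araf failed without PTC-209 replicate 2 (adjusted p = 0.0564) and that of Araf (0.29) and Sos1 (0.235) against a fold change of 1.2, with ranges of 0.00583 to 0.29 and 0.00322 to 0.235. Among the rises, Rasa2 (adjusted p = 0.032) failed without any 1 array except PTC-209 replicate 3 (0.0549 to 0.113) and against a fold change of 1.2. Braf and Mknk2 lost their call without some single arrays and against that fold change. Map2k1, Shc1 and Ptpn11 lost theirs only against that fold change (0.317, 0.285 and 0.154). The genes that passed were 51.7% of the measured ones, with a median log2 difference of 0.24. The share over all genes was 26.6%, but all except 1 of the 29 genes reached the median brightness, and among all genes that did so 45.4% passed, which is near the share of this list.

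In the JNK and p38 cascades 9 of 31 measured genes rose and 3 fell (38.7%, median log2 difference 0.14). That share lies above the 26.6% of all genes and below the 45.4% of bright genes, and 2 of the 31 were dim. Gadd45a, Gadd45b and Gadd45g, stress proteins that bind the kinase MEKK4 upstream of p38 and JNK, were 10.7-fold, 3.19-fold and 2.90-fold higher, and Mapk8ip3, a JNK scaffold, was 1.93-fold higher. Map2k6, a kinase that activates p38, was 3.39-fold lower (6.23 ± 0.05 to 4.46 ± 0.17) and Map3k12 1.60-fold lower. Of the other rises, Mapkapk3 failed without DMSO replicate 2 (adjusted p = 0.058), DMSO replicate 3 (0.0856), PTC-209 replicate 1 (0.068) or PTC-209 replicate 3 (0.0663). Tab1 failed without DMSO replicate 2 (0.0635), DMSO replicate 3 (0.0928), PTC-209 replicate 2 (0.109) or PTC-209 replicate 3 (0.0868). Neither passed against a fold change of 1.2 (0.588 and 0.851). Mapk13, the delta form of p38, fell narrowly (adjusted p = 0.0476). It did not pass without DMSO replicate 1 (0.121), DMSO replicate 2 (0.104), PTC-209 replicate 2 (0.172) or PTC-209 replicate 3 (0.103), after median centring (0.0636) and against a fold change of 1.2 (0.858), with a range of 0.0184 to 0.858.

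Genes that ERK is known to induce were not moved one way. Of 22 measured, 7 rose and 5 fell (54.5%, median log2 difference 0.078), against 26.6% of all genes and 45.4% of bright genes. Emp1, a membrane protein, was 1.98-fold higher, Klf6 1.85-fold, Myc 1.62-fold (10.37 ± 0.06 to 11.07 ± 0.08) and the receptor Epha2 1.53-fold. The receptor Epha4 was 5.19-fold lower (7.90 ± 0.19 to 5.52 ± 0.22), the immediate early factor Fos 2.03-fold (5.35 ± 0.25 to 4.33 ± 0.16), cyclin D1, Ccnd1, 2.02-fold (11.01 ± 0.12 to 9.99 ± 0.10) and the matricellular Ccn1 1.89-fold. Egr1 fell narrowly (limma adjusted p = 0.049). It did not pass after median centring (0.0611), against a fold change of 1.2 (0.664) or without some single arrays, with a range of 0.0254 to 0.664. Some of the rises not named here also lost their call under an alternative.

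The list named other receptor and Ras brakes was also divided, with 5 rises and 6 falls among 20 genes. Those that passed were 55% (median log2 difference 0.052), against 26.6% of all genes and 45.4% of bright genes. Not every gene on it is a brake, as Trib1, Trib2 and Peak1 are not inhibitors of receptors or Ras. The ubiquitin ligases Cblb and Cbl, which mark active receptors for breakdown, were 2.82-fold and 2.23-fold higher, Socs2 1.80-fold and the phosphatase subunit Ppp2r1a 1.53-fold. Trib1, a pseudokinase, was 1.73-fold lower, the sulfatase Sulf2 1.60-fold and Errfi1, an inhibitor of the EGF receptor, 1.55-fold (9.39 ± 0.00 to 8.76 ± 0.07). The receptor phosphatase Ptprj fell narrowly (adjusted p = 0.0444) and failed without any 1 array except PTC-209 replicate 1, among other settings (0.00788 to 0.414 over its alternatives). Without PTC-209 replicate 2 the count of this list was 7 in place of 11. Of 14 other Ets family genes 3 passed, or 21.4%, against 26.6% of all genes and 45.4% of bright genes, with a median log2 difference of 0.069. As many as 6 of the 14 were dim in both groups, which bears on that share. Elf2 rose 1.58-fold and Ehf (4.98 ± 0.23 to 4.0 ± 0.21) and Elf3 (5.04 ± 0.13 to 4.29 ± 0.32), both epithelial factors, fell to below the median brightness. The call of Elf3 ended against a fold change of 1.2 (adjusted p = 0.0515, range 0.00102 to 0.0515 over its alternatives).

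**Figure D4:**
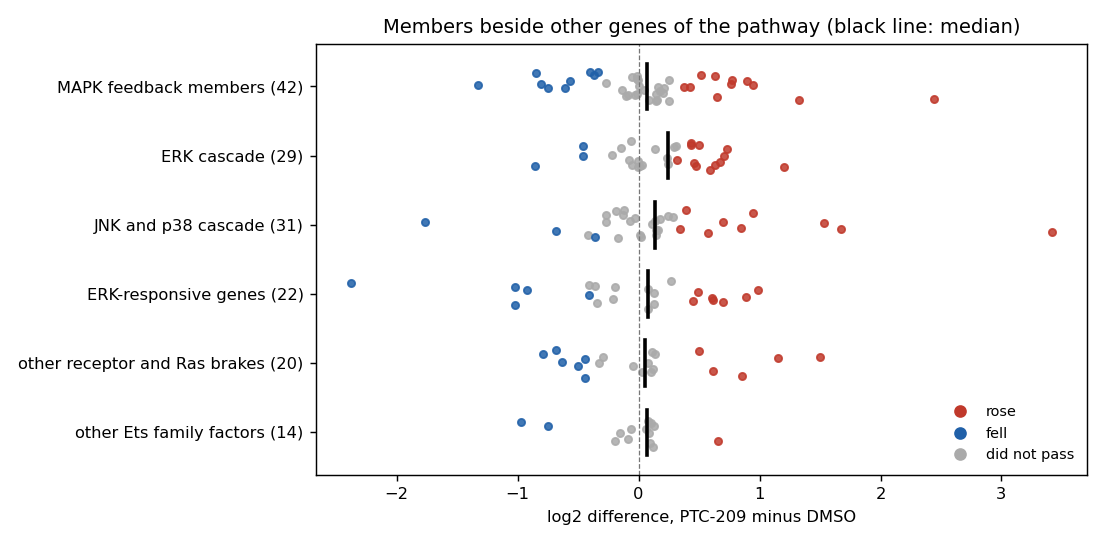
Log2 difference, PTC-209 minus DMSO, of each measured gene in the 42 members and in 5 lists of the pathway, with the median as a black line and the number of genes in parentheses. Each list holds called genes on both sides of 0, and the medians lie between 0.052 and 0.24.

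All 6 epithelial markers were bright. The keratins Krt8 (11.41 ± 0.11 to 10.58 ± 0.11), Krt18 (11.30 ± 0.09 to 10.25 ± 0.13) and Krt19 (10.23 ± 0.05 to 9.24 ± 0.06) fell with PTC-209. The junction genes Cdh1 (9.90 ± 0.13 to 10.25 ± 0.09) and Cldn4 (5.08 ± 0.22 to 5.74 ± 0.09) rose, and Epcam, at 7.89 ± 0.08 and 7.60 ± 0.09, did not pass. Of 6 lung epithelial markers 5 were below the median brightness in both groups, among them Nkx2-1 at 3.60 ± 0.08 and 3.72 ± 0.07 and Sftpc at 2.85 ± 0.22 and 2.60 ± 0.25. The summed level of the 7 fibroblast markers (log2 of the sum) was 6.85 to 6.99 in DMSO and 7.03 to 7.10 with PTC-209. The summed level of the leukocyte list (log2 of the sum) was 7.70 to 7.78 in DMSO and 10.04 to 10.13 with PTC-209, with 1 of 5 measured markers called, Cd68, also a lysosomal protein, while Ptprc, the defining leukocyte gene, was dim at 3.17 ± 0.19 and 3.06 ± 0.12. That of the endothelial list was 9.52 to 9.60 and 8.16 to 8.53, with 1 of 5 called, Cdh5, while Pecam1 was dim at 3.39 ± 0.21 and 3.51 ± 0.06. That of the epithelial list was 12.85 to 13.01 and 12.16 to 12.33. The part of these shifts in the values of the Dusp, Sprouty, Spred and Ets genes was not tested. In bulk RNA fewer cells of a type and less RNA per cell cannot be told apart.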

How the data were processed

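The deposited table holds log2 expression of 34760 probe sets on 6 Affymetrix arrays, made by the authors with RMA, per the submitters' processing notes; that these are log2 values follows from their range. A free-text field of the labels speaks of embryo stages and was not used. A run of 6568 control probe sets was left out, and 28192 were tested with limma 3.58.1 under R 4.3.3 (a linear model of treatment, then eBayes), adjusted by Benjamini and Hochberg over all of them. Of these, 21640 name 1 gene, per the platform annotation. Array medians lay between 4.28 and 4.35, and arrays correlated at 0.992 to 0.996 within and 0.97 to 0.974 between groups (across probe sets). RMA evens out the arrays, so a change common to most genes is hidden. The precision is limited by 3 arrays a group. The fit was tested on simulated data.

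The members, lists and motifs were chosen with earlier results of these data known. Every member is accounted for, members past the threshold get each array's value, and of each pathway list up to 4 genes a direction with the largest differences are named. Further genes are named where the content of a list or the limit of a call is stated. No list test was run. Alternatives were a trended and robust prior, no dim probe sets, quantile normalization again, median centring, a replicate block, a test against a fold change of 1.2, the mean of a gene's probe sets, and leaving out each array. Promoters are RefSeq's in GRCm38.p6, matched by symbol for 32 of the 42 genes. Figures were drawn with matplotlib 3.10.9.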

Additional observations from a re-analysis of the deposited data

How the results depend on the processing

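Of the 20 called members 12 kept their call under all 13 alternatives, 8 lost it under at least 1, and 0 of the 22 others gained one; 0 members changed direction while called. Against a fold change of 1.2 the members numbered 7 higher and 5 lower in place of 11 and 9, and 7 genes each passed in the ERK cascade and among the other receptor and Ras brakes, in place of 15 and 11. When 1 array was left out, 9 to 11 members rose and 7 to 8 fell. The median log2 difference of the members then lay between 0.0233 and 0.09207. In the list of other receptor and Ras brakes 7 to 10 genes passed. Under the remaining settings the counts of members stayed at 11 and 9. The replicate number as a block gave 11 and 9 as well and changed no call of a member; it gave 13 genes in place of 12 in the JNK and p38 cascades and among ERK-responsive genes. Same-numbered arrays of both groups deviated together with r = 0.231, 0.07 and 0.073, and DMSO replicate 2 correlated more with PTC-209 replicate 3 (0.105) than with its own number, so the numbers were not taken to pair the arrays; the labels do not say whether they do. Values near the background limit the dim members, of which 9 were under the median brightness in both groups.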
